A study of Arabidopsis thaliana with 18 samples.

Results

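The MYB domain transcription factor genes of Arabidopsis thaliana were examined as targets of FRUITFULL (FUL) in DNA affinity purification sequencing (DAP-seq), an assay in which a tagged protein made in vitro pulls down fragments of purified genomic DNA. A gene was counted as a MYB gene when its product in the annotation was a myb domain protein or its symbol was MYB plus a number. The rule gave 124 of the 27444 nuclear protein-coding genes, 123 of them through the product. A MYB gene was called occupied by a complex when at least 1 bp of a peak of that complex lay in the gene or within 3 kb on either side of it.

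The peak lists stood for FUL with SOC1 (FUL-SOC1), FUL with AG and SEP3 (FUL-AG-SEP3), FUL with AG (FUL-AG), FUL with SEP3 (FUL-SEP3) and FUL alone (FUL), and an Input group was sequenced beside them to correct for background. Each of the 6 groups had 3 replicates, 18 samples in all, and each sample used 400 ng of a DNA library from leaves of Col-0 seedlings aged 2 weeks. FUL alone carried the 3xFLAG tag, and the proteins came from a cell-free wheat germ system, so the DNA carried no chromatin and no seedling protein. A complex is a mixture of proteins made together, and a FUL-SOC1 peak can therefore also come from FUL bound without SOC1. One list per complex was deposited, called on the 3 replicates together, so no value below has a replicate spread, and the read depth of a list is not known here. The lists held 4831 peaks for FUL-SOC1, 4457 for FUL-AG-SEP3, 2837 for FUL-AG, 1390 for FUL-SEP3 and 2590 for FUL. The fold of a peak, its height over the local background expected by the peak caller, was compared only within a list, as the percentage of the peaks in that list that were higher.

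FUL, SOC1, AG and SEP3 are MADS-domain transcription factors that bind DNA as dimers or tetramers at CArG-boxes, runs of A and T between CC and GG. FUL and SOC1 act in the transition to flowering, FUL also in fruit development, and AG and SEP3 in the identity of stamens and carpels. MYB proteins form one of the largest transcription factor families of plants, and most of them bind DNA through a pair of MYB repeats. Members control flavonoid pigments, glucosinolates, secondary walls, suberin, trichomes, axillary buds, stamen growth and pollen. Some act downstream of gibberellin, and members of that group are also targets of the microRNA miR159.

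The sites that carried the results below are shown as 30 bases each on the plus strand of the chromosome, from the TAIR10.1 assembly of RefSeq. They were chosen as the sites in all 5 lists, the highest sites of single lists, high sites found in 1 list only, and MYB60 as an exact box low in the FUL-SOC1 list. Capitals mark the 10 bases nearest to a CArG-box within 200 bp around the summit, the highest point of the peak, of 1 list at each site.
MYB37 downstream, chr5:7698104-7698133: gagactattaCCATTATATGtgtatgctat
MYB37 upstream, chr5:7695008-7695037: aacacatgtaCCTTAAATGAtgtaaaacag
MYB21 downstream, chr3:10311322-10311351: caatttttatCCATTTTTGGgcatcgccat
MYB27 start, chr3:19719504-19719533: catgagtttaCCCAAATTGGgaaaaatgtc
MYB92 upstream, chr5:3231616-3231645: ttaaaatttgCTATATATGGacttaatcat
MYB40 upstream, chr5:4621760-4621789: aatatttgatCCCTATTTGGatatatgcac
MYB113 upstream, chr1:24751131-24751160: atatttcggaCCATTTAAGGaaagcaatat
MYB110 upstream, chr3:11009542-11009571: tttttcattaCCAAAAATGGaaacctgaag
MYB3R-5 upstream, chr5:487618-487647: ttatactttgCCTTGTATGGtaaagtagca
MYB60 upstream, chr1:2820667-2820696: cgaaatatttCCATAAAAGGagctcgttaa
MYB61 upstream, chr1:3084634-3084663: cccattatttCCTTTATTTGatgcgttcat
MYB26 downstream, chr3:4575723-4575752: gtttgaatgaCCAATTCTGGttactcatac
MYB47 intron, chr1:6451796-6451825: gaaactcataCCAATTATATccatatgata
The boxes at MYB21, MYB113, MYB110 and MYB60 were exact, that at MYB47 had 2 mismatches, and the other 8 had 1.

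Across the family, 57 of the 124 MYB genes had a peak in any list, 46.0% with a 95% Wilson interval of 37.4 to 54.7%, against 43.9% of all protein-coding genes. The remaining 67 had none. A FUL-SOC1 peak lay at 35 MYB genes (28.2%, interval 21.1 to 36.7%), against 28.7% of all genes. A FUL-AG-SEP3 peak lay at 37 MYB genes (29.8%, interval 22.5 to 38.4%), against 27.1% of all genes. The MYB genes were thus occupied by both larger lists at close to the share of all genes. FUL-AG peaks lay at 22 MYB genes (17.7%, interval 12.0 to 25.4%), against 18.1% of all genes. FUL-SEP3 peaks lay at 12 MYB genes (9.68%, interval 5.62 to 16.2%), against 9.22% of all genes. FUL peaks lay at 25 MYB genes (20.2%, interval 14.0 to 28.1%), against 17.0% of all genes. The share of all genes lay inside the interval of the MYB share in each of the 5 lists. The intervals cover counting error only, and neighbouring genes can share a peak.

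**Figure D1:**
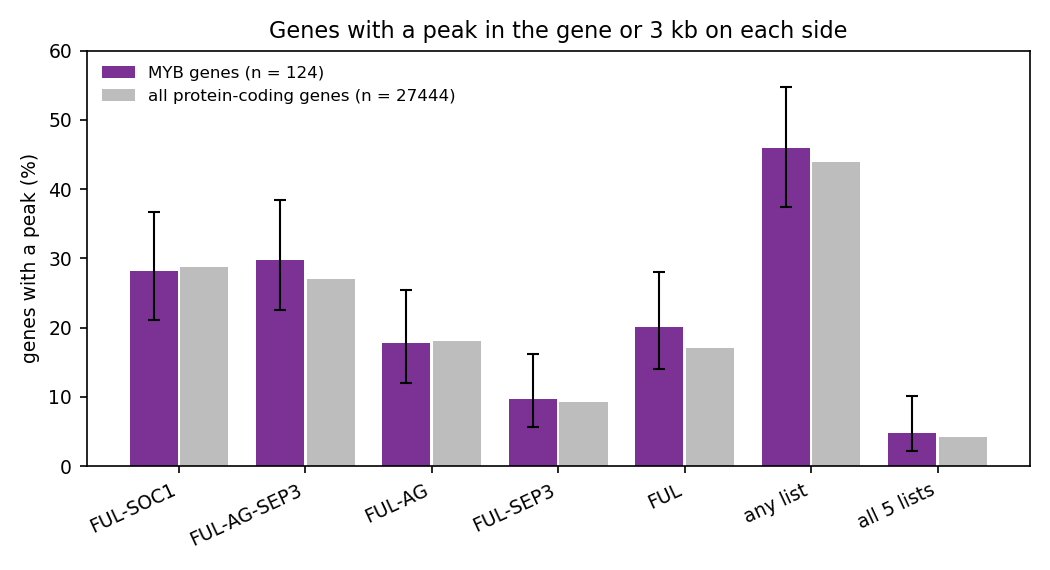
Share of genes (%, vertical axis) with a peak in the gene or 3 kb on each side, for each complex, for any list and for all 5 lists, in the 124 MYB genes (purple, left bar, with 95% Wilson intervals) and in all 27444 protein-coding genes (grey, right bar). Each grey bar ends inside the interval of the purple bar beside it, with 46.0% of MYB genes and 43.9% of all genes in any list.

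The number of complexes at 1 gene ranged up to 5 within the family. One list alone named 26 of the MYB genes (21.0%, against 17.7% of all genes), 2 lists named 8 (6.45%, against 9.71%), 3 lists named 9 (7.26%, against 7.12%), 4 lists named 8 (6.45%, against 5.14%), and all 5 lists named 6. The last were MYB113, MYB21, MYB27, MYB92, MYB40 and MYB37, 4.84% of the family (interval 2.24 to 10.2%), against 4.20% of all genes. FUL-SOC1 was the only list at 11 MYB genes (8.87%, interval 5.03 to 15.2%), against 9.46% of all genes. FUL-AG-SEP3 was the only list at 8 (6.45%, interval 3.31 to 12.2%), against 4.10% of all genes. FUL was the only list at 5 (4.03%, interval 1.73 to 9.09%), against 2.62% of all genes. These 3 shares, too, held the share of all genes inside their intervals. FUL-AG was the only list at MYB95 and FUL-SEP3 the only list at MYB20, a regulator of lignin and phenylalanine supply.

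**Figure D2:**
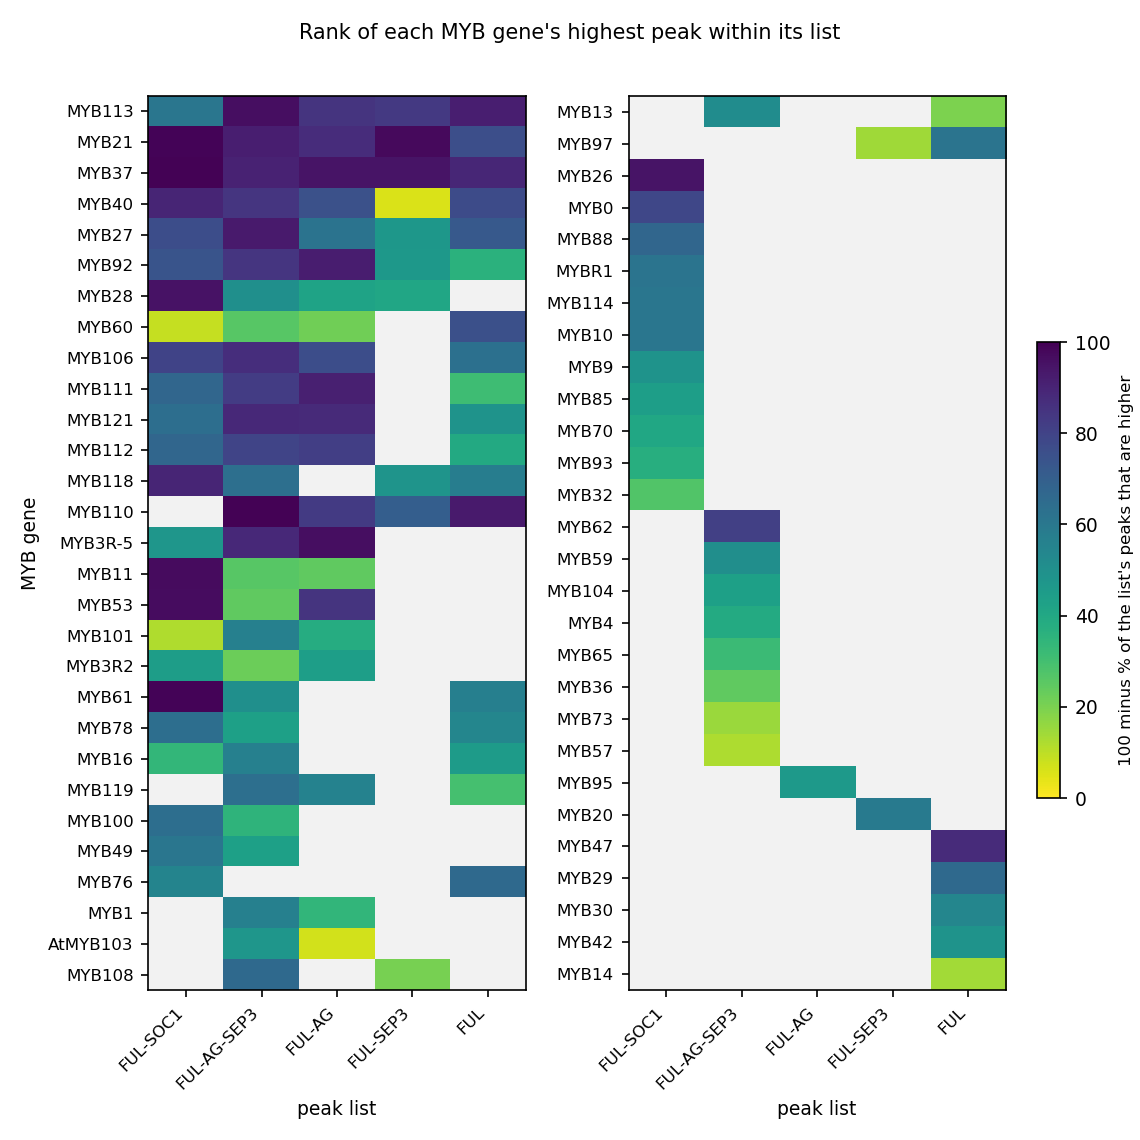
The 57 MYB genes with a peak (rows, in 2 columns of 29 and 28) by the 5 lists (horizontal axis), coloured by the rank of the highest peak of the gene within its list, as 100 minus the percentage of the peaks in the list that are higher. Pale grey cells have no peak. MYB113, MYB21, MYB37, MYB40, MYB27 and MYB92 fill all 5 cells, and the right column, below MYB13 and MYB97, holds the 26 genes found in 1 list.

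MYB37 (RAX1), which promotes the formation of axillary meristems, had 2 sites. Its downstream site, 107 bp past the gene end in FUL-SOC1, was in all 5 lists, with folds of 5.30 in FUL-SOC1, 3.92 in FUL-AG-SEP3, 4.78 in FUL-AG, 6.06 in FUL-SEP3 and 6.71 in FUL. The FUL-SOC1 peak there was the highest of the family in that list, with 0.580% of FUL-SOC1 peaks higher. Its upstream site, 1148 bp before the start in FUL-SOC1, was in all lists but FUL, with folds of 4.27 in FUL-SOC1, 4.35 in FUL-AG-SEP3, 4.30 in FUL-AG and 3.19 in FUL-SEP3. Within FUL-AG-SEP3 the upstream site was the higher one, and within FUL-SOC1, FUL-AG and FUL-SEP3 the downstream site was. Each site held a CArG-box with 1 mismatch. Of the related genes, MYB84 (RAX3) had no peak, and RAX2, which the symbol rule left out, had peaks in 3 lists, those of FUL-SOC1, FUL-AG-SEP3 and FUL-AG.

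MYB21, which drives stamen filament elongation downstream of jasmonate, had 1 site 808 bp past its end with an exact CArG-box. The folds at MYB21 were 4.98 in FUL-SOC1, 4.44 in FUL-AG-SEP3, 4.17 in FUL-AG, 6.91 in FUL-SEP3 and 5.17 in FUL. Its FUL-SEP3 peak was the highest of the family in that list, with 2.37% of FUL-SEP3 peaks higher, and its FUL-SOC1 peak had 1.08% of the list above it. In FUL, 24.0% of peaks were higher than that at MYB21. The start nearest to this site was that of AT3G27809, not of MYB21.

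MYB113, an activator of anthocyanin synthesis, reached all 5 lists through 2 sites. The upstream site, 2436 bp before the start in FUL-AG-SEP3, had an exact CArG-box and folds of 4.93 in FUL-AG-SEP3, 4.04 in FUL-AG, 4.88 in FUL-SEP3 and 7.16 in FUL. No FUL-SOC1 peak lay there. The FUL-SOC1 peak given to MYB113 lay 2899 bp past its end, in an intron of the neighbouring anthocyanin gene MYB114, with a fold of 3.19 and 39.4% of the list higher. MYB114 had this peak and no other. The start nearest to the upstream site was that of AT1G66360. MYB90 (PAP2), the third anthocyanin gene of the cluster, had no peak.

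MYB92 and MYB53 are activators of suberin synthesis. MYB92 was in all 5 lists at 1 site, 956 bp before its start in FUL-SOC1, with folds of 3.41 in FUL-SOC1, 3.98 in FUL-AG-SEP3, 4.52 in FUL-AG, 3.69 in FUL-SEP3 and 3.50 in FUL. MYB53 was in 3 lists at 1 site 674 bp before its start, with folds of 4.40 in FUL-SOC1, 2.75 in FUL-AG-SEP3 and 4.04 in FUL-AG. Both sites held a CArG-box with 1 mismatch. The orders differed: at MYB92 the FUL-SOC1 peak had 25.9% of its list above it and the FUL-AG peak 8.0%, and at MYB53 the FUL-SOC1 peak had 3.29% and the FUL-AG peak 15.0%. Each site also lay in a small annotated gene, AT5G10278 at MYB92 and AT5G65225 at MYB53.

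MYB27 had 1 merged site at its start, with folds of 3.46 in FUL-SOC1, 4.54 in FUL-AG-SEP3, 3.41 in FUL-AG, 3.73 in FUL-SEP3 and 4.95 in FUL. Its summits stood apart by list. Those of FUL-SOC1, FUL-AG-SEP3 and FUL-AG lay 3, 7 and 13 bp before the start, and those of FUL-SEP3 and FUL lay 278 and 281 bp inside the gene, in an untranslated exon of a transcript. The summits of the lists spanned 294 bp at this site, the widest spread among the 34 sites that more than 1 list shared at MYB genes. The median spread over those 34 sites was 33.5 bp, and 20 of them lay within 50 bp. MYB40 had a site in all 5 lists 1438 bp before its start in FUL-SOC1, with folds of 3.86 in FUL-SOC1, 3.98 in FUL-AG-SEP3, 3.70 in FUL-AG, 2.71 in FUL-SEP3 and 5.24 in FUL.

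MYB110 had the highest peak of the family in both FUL-AG-SEP3 and FUL, and no FUL-SOC1 peak. Its site lay 108 bp before the start in FUL-AG-SEP3, on an exact CArG-box, with folds of 5.99 in FUL-AG-SEP3, 3.96 in FUL-AG, 4.37 in FUL-SEP3 and 7.46 in FUL. Only 0.696% of FUL-AG-SEP3 peaks and 7.22% of FUL peaks were higher. MYB60, which controls stomatal opening in guard cells, also had a site on an exact box, 221 bp before its start in FUL-SOC1, and its folds were 2.43 in FUL-SOC1, 2.77 in FUL-AG-SEP3, 2.78 in FUL-AG and 5.15 in FUL. There 91.3% of FUL-SOC1 peaks and 24.3% of FUL peaks were higher.

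Among the highest peaks of FUL-SOC1 at MYB genes, MYB61, a regulator of stomatal aperture and seed coat mucilage, followed MYB37 with a fold of 5.12 at 1473 bp before its start and 0.787% of the list higher. The FUL-AG-SEP3 peak at the same MYB61 site had a fold of 3.12 and 49.8% of its list higher. MYB11, a flavonol activator, had a FUL-SOC1 fold of 4.49 with 2.84% of the list higher, and FUL-AG-SEP3 and FUL-AG folds of 2.77 and 2.83 with 74.1% and 75.5% higher. The MYB11 site lay in ATERDJ3B, whose start was the nearest. MYB61 had no FUL-AG peak, and MYB11 ranked nearer the top of FUL-SOC1 than of FUL-AG-SEP3 or FUL-AG, lists that differ in length. In FUL-AG the order began with MYB3R-5, a three-repeat MYB that represses cell cycle genes, with a fold of 5.06 and 3.56% of the list higher. MYB37, MYB92, MYB111 and MYB121 followed, with FUL-AG folds of 4.78, 4.52, 4.41 and 4.20. In FUL-SEP3, MYB20 had a fold of 3.98 with 40.8% of the list higher.

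The comparison of FUL-SOC1 with FUL-AG-SEP3 asked which genes are shared by the complexes that the study places in the inflorescence meristem and in the fruit. Both lists held 23 MYB genes, 65.7% of the 35 in FUL-SOC1 and 62.2% of the 37 in FUL-AG-SEP3, against 58.1% and 61.7% over all genes of the same lists. FUL-SOC1 but not FUL-AG-SEP3 held 12 MYB genes (9.68%, interval 5.62 to 16.2%), against 12.0% of all genes. The highest were MYB26, which controls wall thickening in the anther endothecium, with a FUL-SOC1 fold of 4.22, the trichome gene MYB0 (GLABRA1) with 3.50, the stomatal gene MYB88 with 3.28, the abscisic acid response gene MYBR1 (MYB44) with 3.22, and MYB114 with 3.19, level with MYB10. The MYB26, MYB0 and MYB88 sites were each nearer to the start of another gene, and the MYB26 site lay in AT3G13882. A second FUL-SOC1 peak of MYB26, with a fold of 3.25, reached into its window at the edge, and the FUL-AG-SEP3 and FUL-AG peaks of that merged site ended 21 and 22 bp outside it, so the place of MYB26 among these 12 depends on the 3 kb limit.

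FUL-AG-SEP3 but not FUL-SOC1 held 14 MYB genes (11.3%, interval 6.85 to 18.1%), against 10.4% of all genes. MYB110 led them with its FUL-AG-SEP3 fold of 5.99, followed by MYB62, a gene of the phosphate starvation response, with 3.82, the stamen maturation gene MYB108 with 3.39, the female gametophyte gene MYB119 with 3.37 and MYB1 with 3.23. The MYB108 site lay on an exact CArG-box 680 bp before the start and also had a FUL-SEP3 peak, with a fold of 3.19. The higher MYB62 site lay 2544 bp past the gene, nearer to the start of AT1G68325. The FUL-AG-SEP3 summit at MYB1 lay 3059 bp before the start, in LAC7, whose start was the nearest. Of the 5 genes, MYB110 alone was among the highest 10% of FUL-AG-SEP3 peaks. With the summit required to lie in the window, 12 MYB genes were in FUL-AG-SEP3 but not FUL-SOC1. Their share was then 0.959 times that of all genes, against 1.09 times by overlap.

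Peaks only in FUL were at MYB47 with a fold of 6.52, MYB29, an activator of aliphatic glucosinolate synthesis, with 4.53, MYB30, which promotes hypersensitive cell death, with 4.05, the lignin regulator MYB42 with 3.86 and the cold response gene MYB14 with 2.95. The MYB47 peak lay in an intron, with 12.2% of FUL peaks higher and no CArG-box within 1 mismatch. The MYB29 peak was one with the FUL peak of its neighbour MYB76, a coding-exon site there. MYB42 had an exact box in an intron. MYB76 and MYB106 had 3 sites each, the most in the family.

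By function, 4 of the 7 GAMYB-like genes, which act in the anther and pollen downstream of gibberellin, had a peak, beside the 43.9% of all genes with a peak in any list. MYB101 was in FUL-SOC1, FUL-AG-SEP3 and FUL-AG with folds of 2.51, 3.23 and 3.03, and MYB97, its partner in pollen tube reception, in FUL-SEP3 and FUL with 3.07 and 4.36. MYB65 and MYB104 had FUL-AG-SEP3 peaks alone, with folds of 2.86 and 3.02, while MYB33, the near copy of MYB65, and MYB81 and MYB120 had none. The highest peak of each of these 4 genes in each list had at least 38.5% of that list above it. The MYB104 summit lay 3071 bp past the gene, in AT2G26940. Both MYB97 summits lay in AT4G26920, and the FUL-SOC1 summit at MYB101 lay in AT2G32450. Each of these other genes had the nearest start to its summit.

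Of the 11 flavonoid genes, 6 had a peak, beside the same 43.9% of all genes. Of the 3 flavonol activators, MYB111 was in 4 lists, with folds of 3.28 in FUL-SOC1, 3.87 in FUL-AG-SEP3, 4.41 in FUL-AG and 3.40 in FUL at 2822 to 2874 bp before its start. MYB11 was in 3 lists and MYB12 in none. Among repressors of phenylpropanoid genes, MYB4 had a FUL-AG-SEP3 peak with a fold of 2.97 on an exact box, 174 bp past its end, MYB32 a FUL-SOC1 peak with 2.74, and MYB7 and MYB3 none. MYB5, a seed coat gene, had none either.

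Of the 8 floral and stamen genes, 4 had a peak, again beside 43.9% of all genes. Beside MYB21, its partner in stamen growth MYB57 had a FUL-AG-SEP3 peak 141 bp before its start, with a fold of 2.54 and 87.5% of the list higher, and the other partner MYB24 had none. MYB26 and MYB108 are given above. MYB17, a gene of floral meristem identity, and the tapetum genes MYB80 and MYB99 had no peak.

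In the other groups, 3 of 6 glucosinolate genes, 3 of 6 epidermal genes, 5 of 13 secondary wall genes, 6 of 11 suberin and root barrier genes and 6 of 11 stress genes had a peak, beside 43.9% of all genes, and no group is called particular from these small counts. The 3 glucosinolate genes with a peak were MYB28, MYB29 and MYB76, of the aliphatic branch. MYB29 had only the FUL peak that it shared with its neighbour MYB76, and the MYB28 site was nearest to the start of AT5G61412. MYB28 had folds of 4.27 in FUL-SOC1, 3.12 in FUL-AG-SEP3, 3.08 in FUL-AG and 3.59 in FUL-SEP3 on an exact box in AT5G61412, and the indolic genes MYB51, MYB122 and MYB34 had none. The related epidermal genes MYB106 and MYB16, which shape conical cells and the cuticle, both had upstream peaks. MYB106 had folds of 3.55 in FUL-SOC1, 4.08 in FUL-AG-SEP3, 3.72 in FUL-AG and 4.41 in FUL, and MYB16 had 2.83, 3.23 and 3.77 in FUL-SOC1, FUL-AG-SEP3 and FUL. At MYB106 the FUL-SOC1 peak lay 79 bp past the gene, apart from the upstream site of the other lists, and FUL-AG-SEP3 had a second, lower peak there with a fold of 2.81. The secondary wall regulators MYB46 and MYB83 had no peak.

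**Figure D3:**
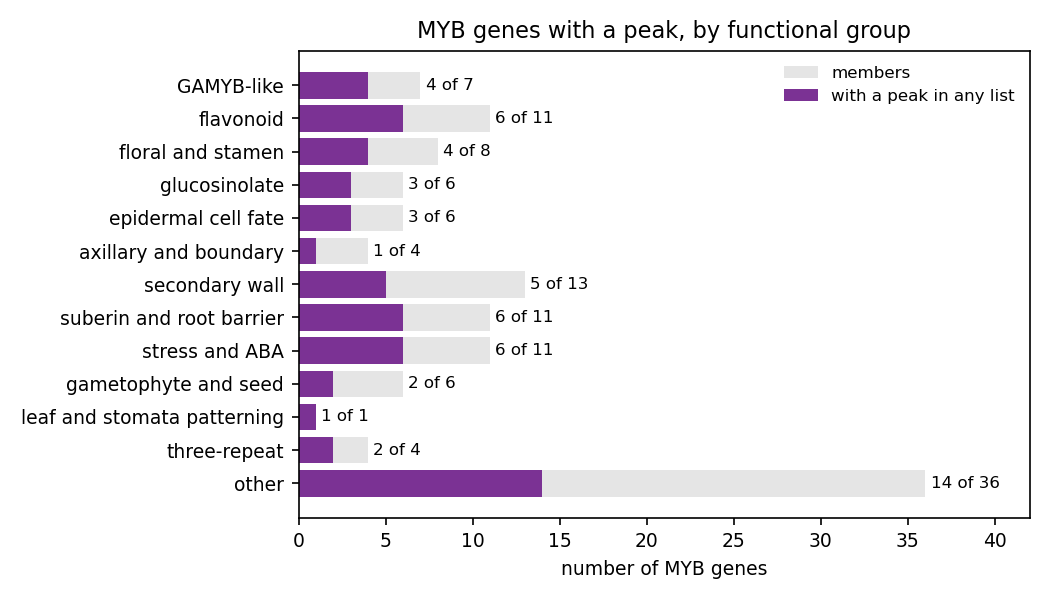
Number of MYB genes (horizontal axis) in each functional group (vertical axis), with the members in grey and those with a peak in any list in purple. Between 1 of 4 axillary and boundary genes and 6 of 11 flavonoid genes had a peak in the groups with more than 1 member, apart from the GAMYB-like genes with 4 of 7.

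Within the lists, the peaks at MYB genes ran from low to high ranks but did not reach the top of any list. The highest fold of any peak was 6.51 in FUL-SOC1, 9.70 in FUL-AG-SEP3, 9.39 in FUL-AG, 10.6 in FUL-SEP3 and 14.7 in FUL. The percentile of a peak was its rank from the lowest fold up, averaged over ties, as a percentage of the list. Its median over the MYB peaks was 62.9 in FUL-SOC1, 50.5 in FUL-AG-SEP3, 75.0 in FUL-AG, 47.1 in FUL-SEP3 and 56.8 in FUL. Folds at MYB genes spanned 2.32 to 5.30 in FUL-SOC1, 2.28 to 5.99 in FUL-AG-SEP3, 2.36 to 5.06 in FUL-AG, 2.71 to 6.91 in FUL-SEP3 and 2.95 to 7.46 in FUL. Of 39 distinct FUL-SOC1 peaks at MYB genes, 8 were among the highest 10% of their list, as were 5 of 43 in FUL-AG-SEP3, 4 of 25 in FUL-AG, 2 of 13 in FUL-SEP3 and 2 of 24 in FUL.

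The 144 distinct peaks at MYB genes fell on 73 merged sites and gave 146 pairs of gene and peak. The summit lay upstream of the MYB gene in 84 pairs (57.5%), against 38.2% over all protein-coding genes, and downstream in 47 (32.2%), against 36.2%. Introns of the MYB gene held 7 summits (4.79%, against 11.4% over all genes) and its coding exons 3 (2.05%, against 7.74%). Peaks of several lists at 1 site repeat its position in these shares, and shares with 1 summit per site were not computed. Within single lists the upstream share ran from 48.0% of 25 pairs in FUL to 72.0% of 25 in FUL-AG. Over all genes it was 38.1% in FUL and 36.0% in FUL-AG. The MYB share was the higher one in each of the 5 lists, without an interval. MYB genes also had more free space: the median distance to the next protein-coding gene was 3657 bp upstream and 1218 bp downstream, against 945 and 400 bp over all genes. Whether this spacing accounts for the upstream share was not tested.

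**Figure D4:**
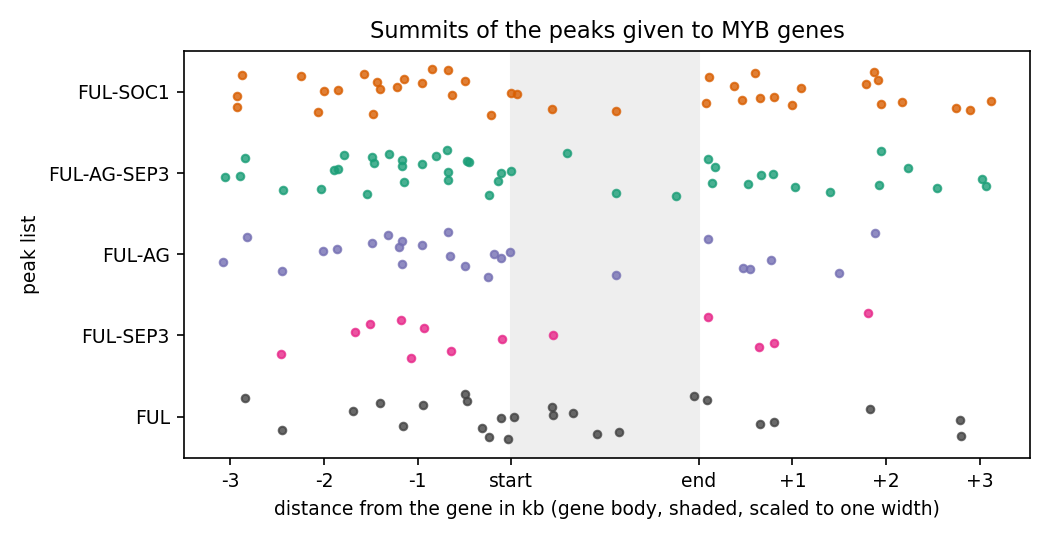
Position of each summit given to a MYB gene (points, 1 row of points per list) relative to the gene, in kb before the start or after the end (horizontal axis), with the gene body shaded and scaled to one width. Of 146 points, 84 lie before the start and 47 after the end, and a few summits lie just past 3 kb because a peak counted with 1 bp in the window.

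In 89 of the 146 pairs (61.0%) the MYB gene had the nearest start of any protein-coding gene, and in 41 the summit lay inside another gene. When a peak went only to the gene with the nearest start, 38 MYB genes kept a peak in any list (30.6%, interval 23.2 to 39.2%), against 21.8% of all genes. The count was 26 for FUL-AG-SEP3 (21.0%, interval 14.7 to 29.0%), against 12.6% of all genes, and 18 for FUL (14.5%, interval 9.38 to 21.8%), against 7.64%. It was 14 for FUL-AG-SEP3 but not FUL-SOC1 (11.3%, interval 6.85 to 18.1%), against 5.51%. Under this assignment the share of all genes lay below the interval in these 4 comparisons. It lay inside the interval for FUL-SOC1 (14.5%, interval 9.38 to 21.8%, against 13.5%). The same held for FUL-AG (10.5%, interval 6.23 to 17.1%, against 8.10%) and FUL-SEP3 (4.84%, interval 2.24 to 10.2%, against 4.12%). A gene with more free space before its start is the nearest start for more of the genome, and the part of the spacing above in these shares was not tested. MYB37, MYB27 and MYB92 were the 3 members that stayed in all 5 lists.

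Of the 144 peaks, 118 (81.9%, interval 74.9 to 87.4%) had a CArG-box with at most 1 mismatch on either strand within 200 bp around the summit, against 70.7% of all nuclear peaks. Windows of the same length 1 kb away held such a box in 25.7% at MYB peaks and 22.1% at all peaks. Exact boxes lay at 34 MYB peaks (23.6%), against 16.0% of all peaks. Peaks of several lists at 1 site repeat its sequence, and with 1 summit per site the share was 68.5% at the 73 MYB sites (interval 57.1 to 78.0%) and 67.5% at all 8081 sites. All 25 FUL-AG peaks at MYB genes held a box with at most 1 mismatch, against 71.1% of the FUL-AG list. In FUL the share was 70.8% (interval 50.8 to 85.1%), against 74.1% of its list.

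**Figure D5:**
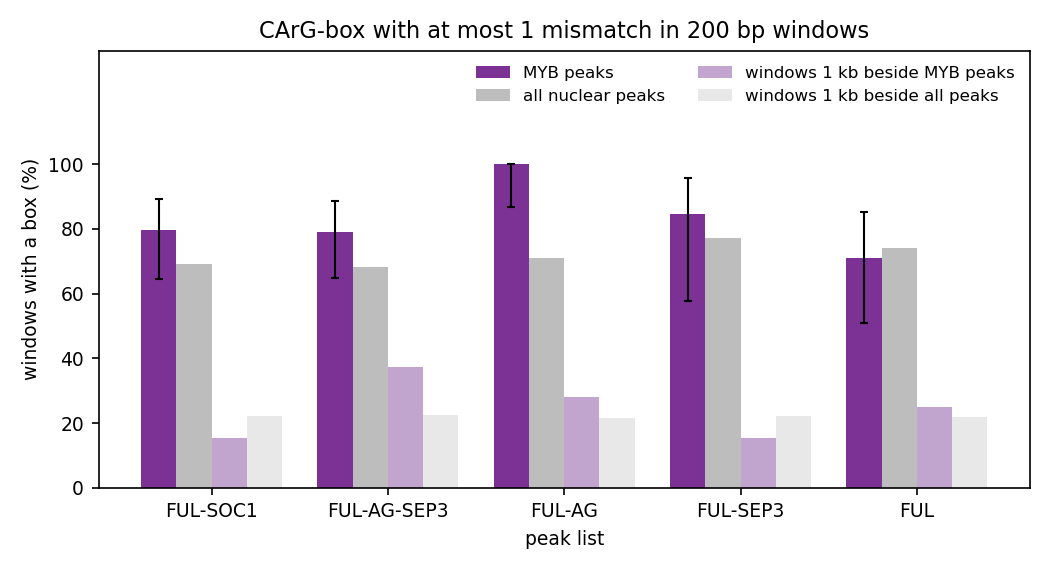
Share of windows of 200 bp (%, vertical axis) with a CArG-box of at most 1 mismatch, by list. From left, bars are MYB peaks (with 95% Wilson intervals), all nuclear peaks, windows 1 kb beside MYB peaks and windows 1 kb beside all peaks. Every list has 70.8% or more of MYB peaks with a box, and the windows beside MYB peaks reach at most 37.2%.

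A box was present at a larger share of the sites that were in more lists. Of 13 MYB sites in 4 or 5 lists, 13 had a box within 1 mismatch (interval 77.2 to 100%), against 79.6% of all such sites. Of 21 MYB sites in 2 or 3 lists, 17 had one (81.0%), against 69.1% of all such sites. Of 39 MYB sites in 1 list, 20 had one (51.3%, interval 36.2 to 66.1%), against 63.0% of all such sites. The order was the same in the MYB sites and in all sites. Sites in a single list made up 53.4% of the MYB sites and 51.3% of all sites, and sites in all 5 lists 6.85% and 6.31%.

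A further 8 genes carry a MYB number only as an older symbol and were outside the rule. A peak in any list lay at 4 of the 8, beside 43.9% of all protein-coding genes. Of these, PAP1 (MYB75), the main anthocyanin activator of seedlings, was in all 5 lists, with folds of 4.58 in FUL-SOC1, 6.63 in FUL-AG-SEP3, 6.48 in FUL-AG, 8.14 in FUL-SEP3 and 12.8 in FUL. Only 0.270% of FUL peaks and 0.224% of FUL-AG-SEP3 peaks were higher, so PAP1 stood above each MYB gene of the rule in every list but FUL-SOC1. The FUL-AG and FUL-SEP3 peaks lay downstream of PAP1, and the other 3 lists had a peak on each side of it. RAX2 and the tapetum gene TDF1 had peaks in FUL-SOC1, FUL-AG-SEP3 and FUL-AG, PC-MYB1 in all lists but FUL, and FLP, HOS10, AS1 and TT2 in none. Of 10 genes for MYB-like proteins with a single repeat, 5 had a peak, beside the same 43.9% of all genes. Among the 5, the neighbours TCL1 and TCL2 shared 1 FUL-AG-SEP3 peak between them, with a fold of 3.28, which counted for both. The trichome repressor ETC3 had folds of 4.88 in FUL-AG-SEP3, 4.73 in FUL-AG, 4.41 in FUL-SEP3 and 4.84 in FUL, and the clock genes CCA1 and LHY had none. Of the partners of MYB proteins in pigment and trichome control, TT8 and GL3 had peaks and EGL3, MYC1 and TTG1 had none. All 3 MIR159 genes had a peak, beside 43.9% of protein-coding genes with a peak in any list. MIR159A was in FUL-SOC1 only, MIR159B in all 5 lists and MIR159C in FUL-AG-SEP3 only. These genes are shorter than the median protein-coding gene, so their windows are smaller.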

How the data were processed

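DNA from seedlings was bound in vitro to FUL complexes and sequenced, 18 samples in 6 groups of 3. Per the submitters' processing notes and methods, reads were trimmed with Trim Galore, aligned to TAIR10 with HISAT2, and peaks were called with MACS2 on the replicates together, with Input as background; versions are not given in the sources used here. The deposited fold enrichment is a ratio of pileup to local background by the authors, and the deposited −log10 p-values and −log10 q-values come from the same caller. Every deposited peak had a q below 0.05. Summit offsets were read as deposited. The lists pool replicates, so no test between groups and no error of a peak could be computed, and sampling was described by 95% Wilson intervals. The Input group has no peak list and enters through the caller only.

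Genes, transcripts and sequence came from RefSeq TAIR10.1, whose nuclear chromosomes 1 to 5 contain all peak coordinates; 95 mitochondrial peaks were left out. Overlaps, ranks and boxes were computed with Python 3.11.15, NumPy 2.4.6 and SciPy 1.17.1 and tested on simulated data (600 windows and 200 planted boxes, 0 wrong). Peaks of different lists that overlapped were merged into sites. The CArG-box was searched as CC, 6 bases of A or T, and GG, which reads the same on both strands. Genes named were the members in all 5 lists, the 5 highest of each list, the 5 highest of FUL-SOC1 without FUL-AG-SEP3, of the reverse and of FUL alone, the GAMYB-like, flavonoid and floral lists, and members sharing a site; other names were added after their values were seen. The members, gene groups and alternatives were chosen with earlier results of these data known. Group membership came from general knowledge of MYB numbers, and the annotation named all members. Alternatives were other windows, assignment to the nearest start, stricter peaks, older symbols and other box settings.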

Additional observations from a re-analysis of the deposited data

How the results depend on the processing

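No paired analysis was possible because each peak list was deposited as 1 call over 3 replicates, and for the same reason no replicate could be left out. Counts of MYB genes were within 1.5 times of those reported when the summit had to lie in the window, with p below 0.0001, with q below 0.0001 and with older symbols added. The limit on p tests little, because it removed few peaks. The share of all genes with a FUL-SOC1 peak was 28.4% with it and 28.7% without it. With 1 kb on each side the counts were 17 for FUL-SOC1, 22 for FUL-AG-SEP3, 12 for FUL-AG, 33 for any list, 4 for FUL-SOC1 but not FUL-AG-SEP3 (0.43 times the share of all genes) and 9 for the reverse. Without the downstream side they were 22 for FUL-SOC1 and 6 for FUL-SOC1 but not FUL-AG-SEP3 (0.527 times the share of all genes, against 0.805 with both sides). With the nearest start they were 18 for FUL-SOC1, 13 for FUL-AG, 6 for FUL-SEP3, 3 for all 5 lists and 6 for FUL-SOC1 but not FUL-AG-SEP3, and the MYB share was 1.67 times that of all genes for FUL-AG-SEP3, 1.90 times for FUL, 1.41 times for any list and 2.05 times for FUL-AG-SEP3 but not FUL-SOC1. With each list cut to its 1000 most significant peaks they were 9 for FUL-SOC1, 11 for FUL-AG-SEP3, 12 for FUL-AG (1.45 times the share of all genes), 11 for FUL, 23 for any list, 2 for all 5 lists, 6 for FUL-SOC1 but not FUL-AG-SEP3 and 8 for the reverse. Fewer peaks and narrower windows give fewer genes by construction; the cause of the changed ratios was not tested. The share of MYB peaks with a CArG-box was 68.1% in windows of 100 bp, 68.5% with 1 summit per site and 23.6% for exact boxes.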
